A study of Mus musculus with 12 samples.

Results

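The 10 genes described here are Esrrb, Nr0b1, Nanog, Zfp42, Tfcp2l1, Klf2, Klf4, Klf5, Tbx3 and Tcl1, genes known to mark the naive state of mouse pluripotency. They were picked as a named set of genes, with earlier results of these data known, and are 10 of the 21728 genes listed in any count file of the series. Each symbol matched 1 Ensembl gene, and all 10 passed the filter on low counts in every comparison. The 12 mRNA libraries form 4 groups of 3: primordial germ cell-like cells (PGCLCs) at day 5 from the arm with bisphenol A (BPA) at 100 nM, day 5 PGCLCs without it, epiblast-like cells (EpiLCs) given 100 nM BPA, and untreated EpiLCs. All 4 groups share the C57BL/6 strain and 1 reporter genotype, Blimp1-mVenus with Stella-ECFP (BVSC), which reports Prdm1 and Dppa3. The stem cells were grown with LIF in ground-state medium, turned into EpiLCs over 48 h, and aggregated in plates with PGCLC medium. BPA was given to EpiLCs for 24 h, from 24 h after seeding, and the labels do not say whether it was also present in the PGCLC medium. The untreated EpiLCs are named as water controls. PGCLCs were sorted for both reporters, whereas EpiLCs were harvested whole. The question was whether these factors differed between PGCLCs and EpiLCs, and between exposed and untreated cells within each stage.

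Naive pluripotency is the state of the preimplantation epiblast and of mouse embryonic stem cells in ground-state medium. LIF signalling through STAT3 feeds this network, with Klf4 and Tfcp2l1 among the known STAT3 targets, and the factors hold up one another's transcription together with Oct4 (Pou5f1) and Sox2. The network is known to be shut down as cells pass to the formative state that EpiLCs model, while Oct4 is kept. Several of its members are known to come back on when mouse germ cells are specified. Esrrb is an orphan nuclear receptor that activates the network, and Nr0b1 (Dax1) is a nuclear receptor-like corepressor. Nanog is a homeodomain factor, Zfp42 (Rex1) a zinc finger protein used as the classical naive marker, and Tfcp2l1 a grainyhead-like factor. Klf2, Klf4 and Klf5 are Krüppel-like zinc finger factors with overlapping roles in self-renewal. Tbx3 is a T-box factor. Tcl1 goes against the name of the set, because it encodes a coactivator of the AKT kinase and binds no DNA.

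Counts assigned to genes ranged from 11785338 in a BPA EpiLC library to 34309195 in a BPA PGCLC library, and the count files listed no gene with fewer than 10 counts. A gene that is not listed in a library is read here as 0, and it can have had up to 9 counts. Levels are counts-per-million (CPM) of TMM-scaled library size. The labels do not say that replicates came from separate cultures, so each p-value measures only the spread between libraries. The names of the EpiLC and PGCLC libraries follow different schemes, so a preparation batch and the cell stage cannot be told apart. The germ cell markers Prdm1, Tfap2c, Dppa3, Nanos3, Dnd1 and Kit, with a summed level of 798 to 856 CPM in BPA PGCLCs and 880.1 to 1017 CPM in untreated PGCLCs, had 78.7 to 81.6 CPM in BPA EpiLCs and 71.5 to 79.5 CPM in untreated EpiLCs. Of these markers, 6 of 6 were called higher in untreated PGCLCs than in untreated EpiLCs, where 30.4% of all genes tested were. A pair of libraries stood apart within their groups. Untreated EpiLC replicate 3 lay at 107 on the third principal component, against -39.0 to 12.3 for the other 11 libraries. BPA PGCLC replicate 3 had the lowest level of endoderm markers in its group.

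Promoter sequences are shown for 4 members. Those of Nanog, Esrrb and Zfp42 are shown because they hold letters that match the binding motifs of Oct4 or Sox factors, and that of Klf2 because it holds none and lies on the chromosome of Zfp42. The promoters of Nr0b1, Tfcp2l1, Tcl1 and Klf4 hold none of these letters either, and Nr0b1, Tfcp2l1 and Tcl1 were called lower in BPA PGCLCs as Nanog, Esrrb and Zfp42 were. Each sequence runs from 250 bases before to 50 bases after a transcription start, 5′ to 3′ along the gene's strand, from RefSeq on GRCm38.p6. The windows are chr6:122707239-122707538 on the plus strand for Nanog, chr12:86360867-86361166 on the plus strand for Esrrb, chr8:43306960-43307259 on the minus strand for Zfp42 and chr8:72318812-72319111 on the plus strand for Klf2. Capitals mark matches, on either strand, to the octamer ATGCNAAT, its shorter form ATGCAAA and the SOX motif CATTGT.
Nanog: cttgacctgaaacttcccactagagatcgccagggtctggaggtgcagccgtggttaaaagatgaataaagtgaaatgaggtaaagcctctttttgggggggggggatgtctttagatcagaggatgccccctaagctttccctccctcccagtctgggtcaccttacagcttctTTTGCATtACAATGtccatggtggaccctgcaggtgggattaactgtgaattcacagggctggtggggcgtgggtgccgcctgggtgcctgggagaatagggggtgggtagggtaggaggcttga
Esrrb: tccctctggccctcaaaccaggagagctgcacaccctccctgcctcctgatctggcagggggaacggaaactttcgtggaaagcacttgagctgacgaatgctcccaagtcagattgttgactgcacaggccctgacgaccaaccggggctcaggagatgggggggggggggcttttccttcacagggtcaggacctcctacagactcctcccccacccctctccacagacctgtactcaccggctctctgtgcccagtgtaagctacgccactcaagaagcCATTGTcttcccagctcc
Zfp42: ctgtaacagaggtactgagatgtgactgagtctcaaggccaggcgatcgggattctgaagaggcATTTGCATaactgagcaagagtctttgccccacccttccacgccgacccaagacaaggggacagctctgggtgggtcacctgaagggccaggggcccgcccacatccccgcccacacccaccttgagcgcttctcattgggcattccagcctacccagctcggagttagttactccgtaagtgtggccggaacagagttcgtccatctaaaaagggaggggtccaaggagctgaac
Klf2: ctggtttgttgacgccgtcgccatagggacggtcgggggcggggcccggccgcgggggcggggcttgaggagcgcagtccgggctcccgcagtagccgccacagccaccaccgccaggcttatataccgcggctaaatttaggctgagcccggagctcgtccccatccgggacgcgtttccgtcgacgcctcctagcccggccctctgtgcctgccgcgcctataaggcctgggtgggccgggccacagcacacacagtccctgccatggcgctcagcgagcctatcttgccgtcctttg

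In the Nanog promoter the short octamer lay at -75 to -69 from the start and the SOX motif at -67 to -62, both on the minus strand and 1 base apart. This pair of neighbouring motifs is the Oct4 and Sox2 element for which the mouse Nanog promoter is known. Written as CATTGTNATGCAAA and searched on both strands, the joint motif was found in 2 of 32851 promoters of the same length, a share of 0.00609%, and both were Nanog's own overlapping windows. The joint motif has the order and spacing of the Nanog pair, so its match in Nanog is not a separate result. Pairs with other letters or spacing were not counted. The Zfp42 promoter held the full octamer at -186 to -179, which overlaps its match to the short form, and the first Esrrb promoter held a SOX match at 33 to 38 after the start. Some genes have several windows, so motifs were counted by gene, over 27025 genes. Of the 8 members in the table, 1 held the octamer, 2 the short form and 2 the SOX motif, where 3.6%, 5.24% and 14.3% of all genes held them. Of all 32851 promoters, 3.15%, 4.63% and 12.6% held them. The table had no entry for Klf5 or Tbx3.

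Motifs named for the members' own families were also counted. The KLF motif CACACCC was held by 2 of the 8 members, Zfp42 and Esrrb, and by 9.05% of all genes, and the GC box GGGCGGG by 4 of 8 and by 27.9% of all. The STAT motif TTCNNGGAA was held by 1, Esrrb, in its first promoter, and by 5.6% of all. Neither the ERR motif AAGGTCA, held by 5.38% of all genes, nor the TFCP2L1 motif CCAGNNNNNNCCAG, held by 3.94%, nor the T-box motif AGGTGTGA, held by 1.48%, was found in a member promoter. A match describes letters in these windows and is not a bound site.

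All 10 genes were higher in untreated PGCLCs than in untreated EpiLCs. The fitted differences ran from 4.12-fold for Zfp42 to 273-fold for Tbx3, and the median log2 difference of the members was 4.81, against 0.07 for all 17608 genes tested. By the edgeR quasi-likelihood test with Benjamini-Hochberg adjustment, 10 of 10 members were called higher, where 30.4% of all genes tested were called higher and 25.2% lower. Untreated PGCLC and EpiLC libraries did not overlap for any member, and 32.1% of all genes were higher without overlap. In these bulk libraries, fewer cells that express a gene and less RNA per cell cannot be told apart.

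Both nuclear receptors separated the stages widely. Esrrb (ENSMUSG00000021255, chr12:86361117-86521628 of mm10, plus strand) had 548, 538 and 573 CPM in untreated PGCLCs, against 9.82, 12.2 and 8.91 CPM in untreated EpiLCs. Its log2 difference of 5.74 ± 0.13 (SE, n = 3 each, adjusted p = 1.32e-10) had the 2nd smallest p of all 17608 genes. Nr0b1 (ENSMUSG00000025056, chrX:86191764-86195947, plus strand) had 105, 84.5 and 74.7 CPM in untreated PGCLCs, against 4.35, 4.25 and 6.48 CPM in untreated EpiLCs. The log2 difference of Nr0b1 was 4.15 ± 0.21 (adjusted p = 2.02e-08), and its 3 PGCLC libraries varied more than those of Esrrb.

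Nanog and Zfp42 differed by unequal amounts. Nanog (ENSMUSG00000012396, chr6:122707489-122714633, plus strand) had 547, 547 and 545 CPM in untreated PGCLCs, against 20.6, 23.3 and 15.7 CPM in untreated EpiLCs, a log2 difference of 4.78 ± 0.15 (adjusted p = 8.39e-10). Zfp42 (ENSMUSG00000051176, chr8:43295063-43306980, minus strand) had 165, 188 and 186 CPM in untreated PGCLCs, against 41.2, 42.7 and 47.3 CPM in untreated EpiLCs. The log2 difference of Zfp42, 2.04 ± 0.09 (adjusted p = 1.09e-08), was the smallest of the 10. Tfcp2l1 (ENSMUSG00000026380, chr1:118627945-118685168, plus strand) had 365, 328 and 359 CPM in untreated PGCLCs, against 14.6, 15.2 and 6.41 CPM in untreated EpiLCs, with the lowest value in EpiLC replicate 3. Its log2 difference was 4.84 ± 0.26 (adjusted p = 3.30e-08).

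The 3 Krüppel-like factors were 16.1-fold to 30.3-fold higher in untreated PGCLCs. Klf2 (ENSMUSG00000055148, chr8:72319033-72321656, plus strand) had 266, 285 and 327 CPM there, against 14.1, 10.6 and 30.7 CPM in untreated EpiLCs, where replicate 3 was the highest. The log2 difference of Klf2 was 4.01 ± 0.31 (adjusted p = 7.30e-07), and 4.52 without untreated EpiLC replicate 3. Klf4 (ENSMUSG00000003032, chr4:55527143-55532466, minus strand) had 57.0, 60.3 and 48.8 CPM in untreated PGCLCs, against 3.14, 2.70 and 2.85 CPM in untreated EpiLCs. This was a log2 difference of 4.25 ± 0.31 (adjusted p = 4.18e-07) at the lowest PGCLC level of the 3 factors. Klf5 (ENSMUSG00000005148, chr14:99298691-99315036, plus strand) had 201, 218 and 214 CPM in untreated PGCLCs, against 8.38, 7.91 and 4.25 CPM in untreated EpiLCs, a log2 difference of 4.92 ± 0.21 (adjusted p = 5.37e-09).

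Tbx3 and Tcl1 were close to the detection limit in EpiLCs. Tbx3 (ENSMUSG00000018604, chr5:119670669-119684724, plus strand) had 167, 180.1 and 150.3 CPM in untreated PGCLCs, against 0.852 and 0.777 CPM in untreated EpiLC replicates 1 and 2, which are 19 and 17 counts. Untreated EpiLC replicate 3 did not list it. The fitted log2 difference of Tbx3 was 8.09 ± 0.38 (adjusted p = 1.32e-08), and it was 7.98 with unlisted genes counted as 9 and 7.61 without that library. The antisense gene Tbx3os1 overlaps Tbx3 and had 1.06 to 1.18 CPM in untreated PGCLCs. Whether reads were counted by strand is not given here. Tcl1 (ENSMUSG00000041359, chr12:105216750-105222793, minus strand) had 54.2, 51.3 and 48.9 CPM in untreated PGCLCs, against 0.986, 1.46 and 2.02 CPM in untreated EpiLCs. Its log2 difference was 5.15 ± 0.20 (adjusted p = 3.41e-09).

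**Figure D1:**
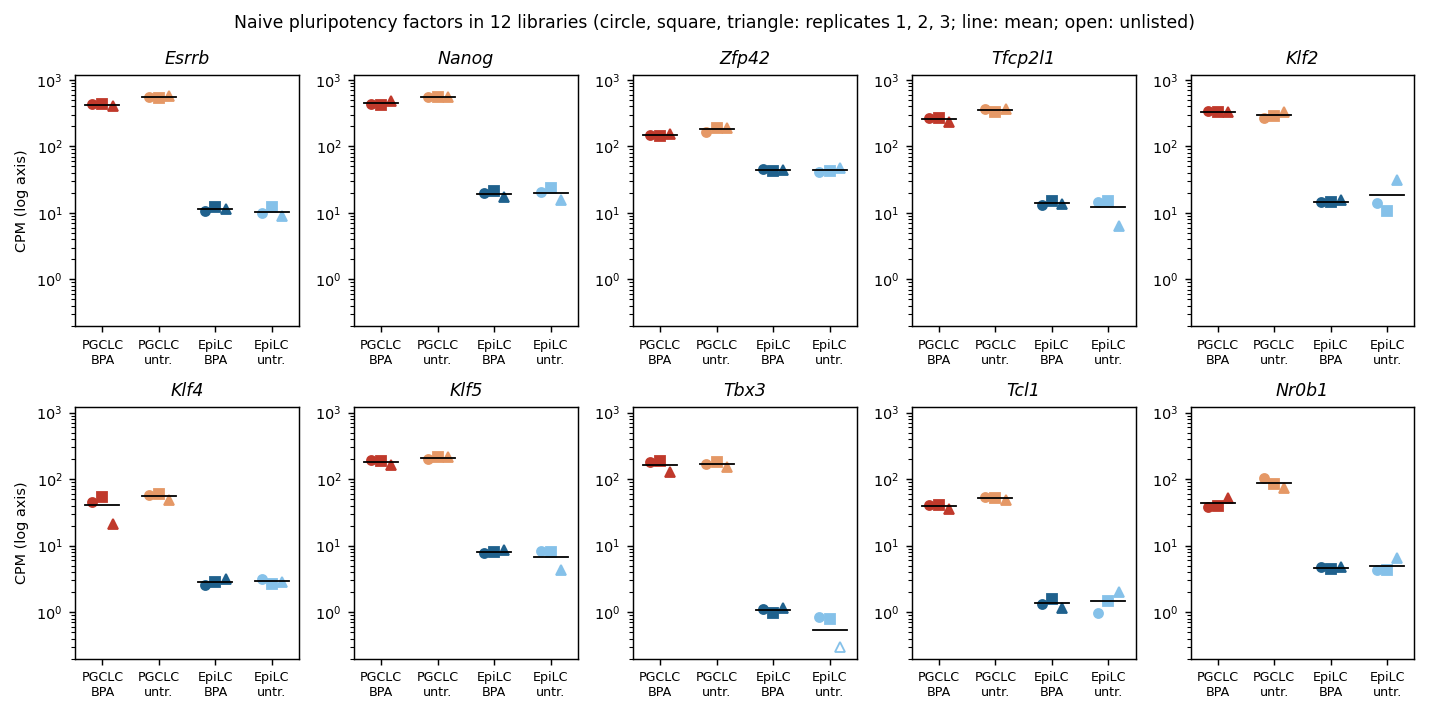
CPM of each of the 10 genes on a log axis in BPA PGCLCs, untreated PGCLCs, BPA EpiLCs and untreated EpiLCs; circles, squares and triangles are replicates 1, 2 and 3, lines are group means, and the open triangle marks untreated EpiLC replicate 3, which does not list Tbx3 and is drawn at the foot of the panel. Every gene is higher in both PGCLC groups than in both EpiLC groups, with the narrowest gap for Zfp42 and the widest for Tbx3.

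The same 10 genes were called higher when BPA PGCLCs were set against BPA EpiLCs, where 32.5% of all genes tested were. The median log2 difference of the members was 4.47, against 0.13 for all genes. Tbx3 again differed most, by 7.21 ± 0.36 on the log2 scale, and Zfp42 least, by 1.73 ± 0.09, with Esrrb at 5.19 ± 0.13 and Nr0b1 at 3.21 ± 0.20.

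The order of the genes changed between the stages. Divided by the length of merged exons, so that genes can be compared, Nanog stood highest in untreated PGCLCs at 244 ± 0.497 CPM per kilobase (SD, n = 3), followed by Klf2 at 159 ± 16.9. Zfp42 at 95.6 ± 6.64 and Esrrb at 91.4 ± 2.99 CPM per kilobase overlapped in their libraries. Below them Nr0b1 at 48.7 ± 8.51 and Klf5 at 40.6 ± 1.78 overlapped, as did Klf5 and Tfcp2l1 at 37.2 ± 2.10, and Tcl1 at 27.9 ± 1.44 and Tbx3 at 25.0 ± 2.25. Klf4 was lowest at 18.2 ± 1.95 CPM per kilobase. In BPA PGCLCs the first 4 places were held by the same genes, Nanog at 199 ± 16.4, Klf2 at 179.7 ± 2.76, Zfp42 at 78.5 ± 3.73 and Esrrb at 69.2 ± 2.86 CPM per kilobase, each apart from its neighbour. Nr0b1, the fifth in untreated PGCLCs, was the eighth in BPA PGCLCs at 23.9 ± 4.26 CPM per kilobase, where its libraries overlapped those of Tbx3 and Tcl1. In EpiLCs Zfp42 stood highest, at 23.7 ± 0.921 CPM per kilobase in BPA EpiLCs and 23.2 ± 1.70 in untreated EpiLCs. Nanog and Klf2 followed with overlapping libraries, at 8.68 ± 0.971 and 8.005 ± 0.274 CPM per kilobase in BPA EpiLCs and at 8.86 ± 1.73 and 9.996 ± 5.82 in untreated EpiLCs. Tbx3 was lowest in both EpiLC groups, at 0.165 ± 0.0144 and 0.0820 ± 0.0712 CPM per kilobase.

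In PGCLCs of the BPA arm, 6 of the 10 genes were lower than in untreated PGCLCs and passed the test: Nr0b1, Tfcp2l1, Esrrb, Tcl1, Nanog and Zfp42. Their means lay at 49.2% of the untreated mean for Nr0b1 and at 72.7% to 82.1% for the other 5. Klf5, Klf4, Tbx3 and Klf2 did not pass, at 85.2%, 73.0%, 99.1% and 113% of the untreated mean. Over all 16753 genes tested, 5.72% were called lower and 8.13% higher, and the median log2 change was -0.33 for the members and 0.01 for all genes. The calls fell on both nuclear receptors, Nanog, Zfp42, Tfcp2l1 and Tcl1, and on none of the 3 Krüppel-like factors. Klf4, however, lay within the 72.7% to 82.1% of 5 called genes, and families of factors were not compared.

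Nr0b1 had the largest change of the set. It had 38.2, 39.5 and 52.1 CPM in BPA PGCLCs, against 105, 84.5 and 74.7 CPM in untreated PGCLCs, and the groups did not overlap. The log2 change of Nr0b1 was -1.01 ± 0.16 (adjusted p = 0.00731), the lowest BPA values being those of replicates 1 and 2. Esrrb had 429.6, 427 and 398 CPM in BPA PGCLCs, all below the 538 to 573 CPM of untreated PGCLCs. Its log2 change was -0.39 ± 0.05 (adjusted p = 0.00476), the smallest adjusted p of the 10. These 2 genes were the only members called under each of the 11 alternatives and 6 left-out libraries tried.

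Tfcp2l1, Nanog, Zfp42 and Tcl1 fell by less than Nr0b1. Tfcp2l1 had 269, 267 and 229.6 CPM in BPA PGCLCs, against 328 to 365 CPM in untreated PGCLCs, a log2 change of -0.45 ± 0.08 (adjusted p = 0.0120). Nanog had 431, 418 and 487 CPM in BPA PGCLCs, against 545 to 547 CPM in untreated PGCLCs, a log2 change of -0.28 ± 0.06 (adjusted p = 0.0210). The coefficient of variation of Nanog was 8.25% over the BPA libraries and 0.204% over the untreated ones. Zfp42 had 148, 141 and 155 CPM in BPA PGCLCs, against 165 to 188 CPM in untreated PGCLCs, a log2 change of -0.27 ± 0.07 (adjusted p = 0.0411). Tcl1 had 41.1, 41.2 and 36.1 CPM in BPA PGCLCs, against 48.9 to 54.2 CPM in untreated PGCLCs, a log2 change of -0.37 ± 0.10 (adjusted p = 0.0422). No BPA library reached the lowest untreated library for any of these 4 genes, though Zfp42 and Tcl1 lay near the threshold.

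The Krüppel-like factors and Tbx3 gave mixed values. Klf2 had 338, 329 and 329 CPM in BPA PGCLCs, against 266, 285 and 327 CPM in untreated PGCLCs, a log2 change of 0.19 ± 0.08 (adjusted p = 0.144). Klf5 had 193, 187 and 160.3 CPM in BPA PGCLCs, against 201 to 218 CPM in untreated PGCLCs, a log2 change of -0.22 ± 0.08 (adjusted p = 0.125). Both genes had groups that did not overlap, Klf2 by a narrow margin. Klf4 had 45.7, 54.2 and 21.5 CPM in BPA PGCLCs, against 48.8 to 60.3 CPM in untreated PGCLCs, and its log2 change of -0.44 ± 0.30 (adjusted p = 0.399) had the widest error of the set. Tbx3 had 179, 187 and 127 CPM in BPA PGCLCs, against 150.3 to 180.1 CPM in untreated PGCLCs, a log2 change of -0.00038 ± 0.15 (adjusted p = 0.999). In both genes BPA replicate 3 was the lowest library and the other 2 lay within or near the untreated range. Counting groups that did not overlap, 7 members were lower and 1, Klf2, was higher, where 17.3% and 17.9% of all genes were.

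**Figure D2:**
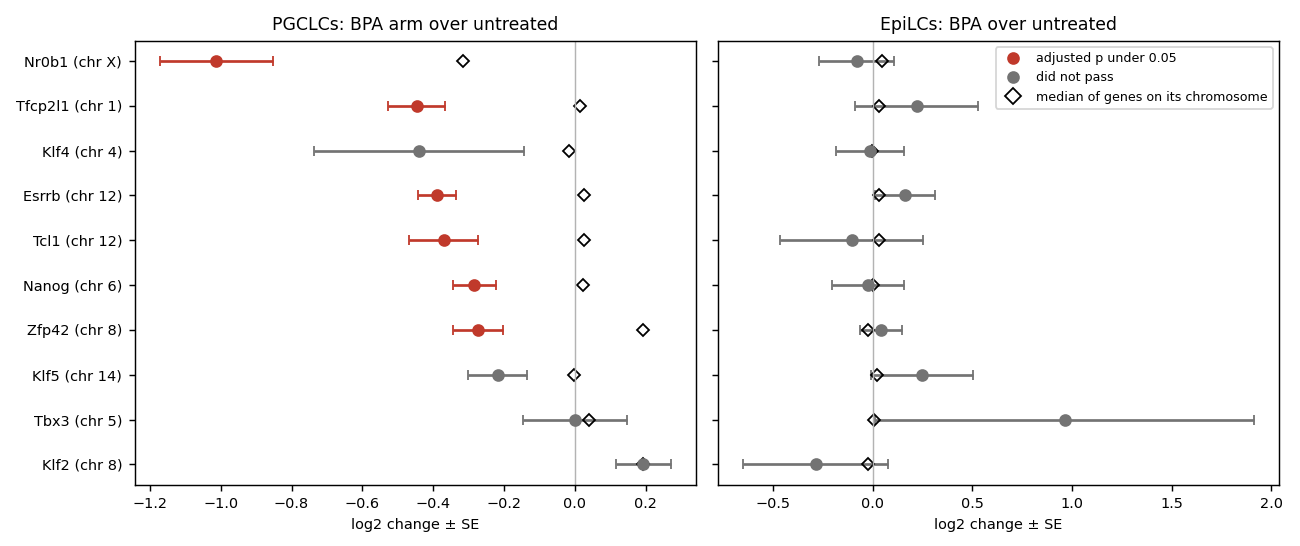
Log2 change with its standard error of each gene in BPA over untreated PGCLCs (left) and in BPA over untreated EpiLCs (right); red points passed an adjusted p of 0.05, grey points did not, and open diamonds give the median change of all genes on the same chromosome. In PGCLCs the 6 red points lie between -0.27 and -1.01, and no point is red in EpiLCs. Klf2 lies on the diamond of chromosome 8 in PGCLCs because it is the middle gene that sets this median.

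The number of members called depended on the libraries and on the fit. It was 4, 3 and 2 without untreated PGCLC replicates 1, 2 and 3, and 3, 3 and 5 without BPA PGCLC replicates 1, 2 and 3. In 1 fit of all 12 libraries it was 2, Esrrb and Nr0b1, while the log2 changes of the others stayed close to those above, at -0.30 for Nanog, -0.29 for Zfp42, -0.46 for Tfcp2l1 and -0.38 for Tcl1.

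BPA PGCLC replicate 3 differed from its group in several members. It stood at 38.8% of the untreated mean for Klf4, against 82.5% and 97.9% in replicates 1 and 2, and at 76.6% for Tbx3, against 108% and 113%. It was also the lowest BPA library for Klf5, Tfcp2l1, Esrrb and Tcl1, and the highest for Nanog, at 89.1%, and Nr0b1, at 59.3%. Without it, the log2 change was -0.13 for Klf4, -0.14 for Klf5, 0.16 for Tbx3 and -1.16 for Nr0b1. Tcl1 then had an adjusted p of 0.0511, and the other 5 calls held.

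Markers of endoderm moved with the BPA arm. The summed level of 13 endoderm genes was 10501, 11049 and 5253 CPM in BPA PGCLCs, against 1565, 1116 and 999.8 CPM in untreated PGCLCs, and all 13 were listed in both groups. Of the 13 genes, 8 were called higher in BPA PGCLCs, where 8.13% of all genes tested were. Among them was Afp, a fetal serum protein, at 2527, 2486 and 1365 CPM against 46.4, 24.5 and 29.2 CPM. The log2 change was 5.40 ± 0.26 for Ttr (adjusted p = 0.000176), a thyroid hormone carrier, 4.55 ± 0.31 for Apob (adjusted p = 0.000347), a lipoprotein, and 5.35 ± 0.39 for Apoa1 (adjusted p = 0.000439). Of the 8 calls, 6 held in every fit with 1 PGCLC library left out, and those of Amn and Dab2, named after their values were seen, held in 1 of 6, the one without BPA replicate 3. BPA PGCLC replicate 3, which had the lowest Klf4 and Tbx3, also had the lowest endoderm sum of its group. The part of these endoderm transcripts in the members' changes was not tested.

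**Figure D3:**
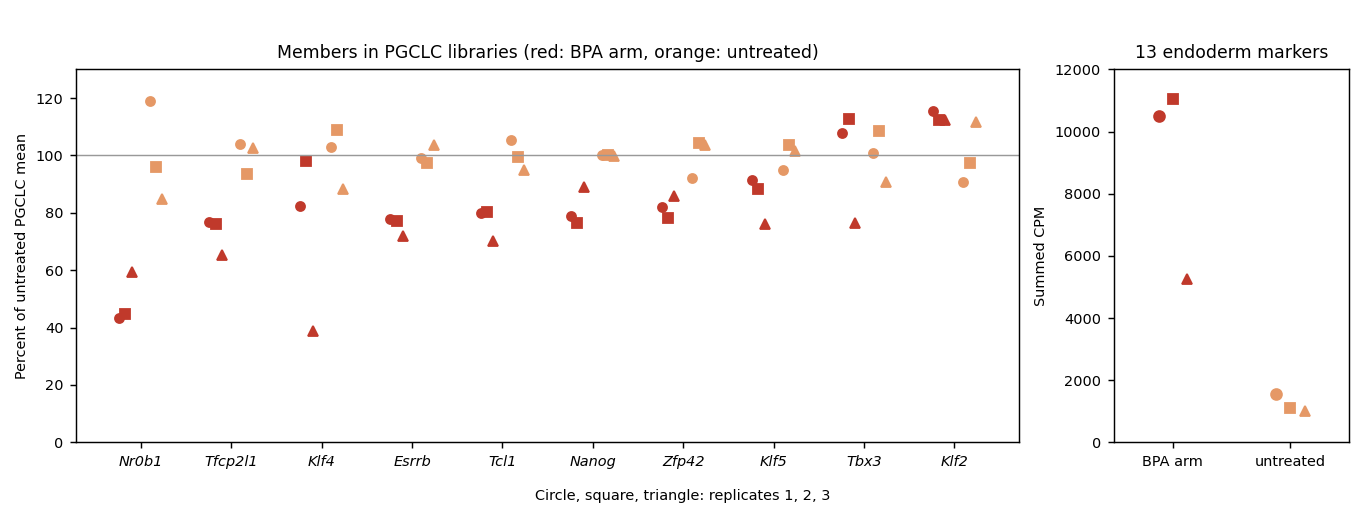
Left, the level of each gene in each PGCLC library as a percent of the untreated PGCLC mean (line at 100); right, the summed CPM of 13 endoderm markers; red is the BPA arm, orange is untreated, and circles, squares and triangles are replicates 1, 2 and 3. BPA replicate 3 is lowest for Klf4, at 38.8%, and has 5253 CPM of endoderm markers, against 10501 and 11049 CPM in the other BPA libraries.

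The chromosomes that carry Klf2, Zfp42 and Nr0b1 had shifted medians. Genes on chromosome 8 had a median log2 change of 0.19 in BPA PGCLCs, the highest of 20 chromosomes, with 70.5% of 913 genes above 0, and its share of counts was 5.49% to 5.59% in BPA PGCLCs, against 4.74% to 4.84% in untreated PGCLCs. EpiLCs lay above both, at 6.04% to 6.19% in BPA EpiLCs and 6.08% to 6.21% in untreated EpiLCs. Between stages the chromosome 8 median was -0.04 in BPA PGCLCs over BPA EpiLCs and -0.31 in untreated PGCLCs over untreated EpiLCs, the lowest of 20 chromosomes, and Zfp42 lay 1.77 and 2.35 above these medians. Klf2 was itself the middle gene of the 913 on chromosome 8, so its own change sets that median and the difference of 0 follows from this. Zfp42, on the same chromosome, lay 0.47 below that median on the log2 scale. Genes on chromosome X had a median log2 change of -0.32, the lowest of the 20, and Nr0b1 lay 0.70 below it, at the 15.4th percentile of its 623 genes. Xist, the RNA that coats an inactive X chromosome, had 3.31, 4.46 and 5.80 CPM in BPA PGCLCs, against 23.4, 25.0 and 22.5 CPM in untreated PGCLCs, a log2 change of -2.37 ± 0.21 (adjusted p = 0.000864). Medians of the chromosomes of the other 7 members lay between -0.02 and 0.04. With library scaling on genes outside chromosomes 8 and X, the same 6 members were called. The part of the chromosome shifts in the changes of Klf2, Zfp42 and Nr0b1 was not tested.

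In EpiLCs no member passed the test between BPA and untreated cells. The edgeR quasi-likelihood test called 0 of 10 members and 0 of 15252 genes, or 0.0%, with 118 genes and 0 members at an unadjusted p under 0.05. Such a p was reached by 472 genes without untreated EpiLC replicate 3 and by 467 without untreated EpiLC replicate 2, with 0 genes called in each. The spread between libraries limits this test, so the lack of calls does not show that BPA left EpiLCs unchanged. DESeq2 called 16 genes and limma voom 0, and neither called a member. The members' log2 changes had a median of 0.01, with 5 positive and 5 negative.

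The nuclear receptors had overlapping values in EpiLCs. Esrrb had 10.8, 12.3 and 11.4 CPM in BPA EpiLCs, against 9.82, 12.2 and 8.91 CPM in untreated EpiLCs, a log2 change of 0.16 ± 0.15 (adjusted p = 0.943). Nr0b1 had 4.77, 4.44 and 4.73 CPM in BPA EpiLCs, against 4.35, 4.25 and 6.48 CPM in untreated EpiLCs, a log2 change of -0.08 ± 0.19. The groups overlapped for both genes.

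All other factors but Tbx3 also overlapped between the EpiLC groups. Nanog had 17.2 to 21.6 CPM in BPA EpiLCs and 15.7 to 23.3 CPM in untreated EpiLCs, with a log2 change of -0.02 ± 0.18. Zfp42 had 42.6 to 46.0 CPM in BPA EpiLCs and 41.2 to 47.3 CPM in untreated EpiLCs, with a log2 change of 0.04 ± 0.11, the smallest error of the set. Tfcp2l1 had 13.1 to 15.3 CPM in BPA EpiLCs and 6.41 to 15.2 CPM in untreated EpiLCs, with a log2 change of 0.22 ± 0.31. In each of these 3 genes the BPA libraries spanned less than the untreated ones, whose replicate 3 was lowest for Nanog and Tfcp2l1 and highest for Zfp42. Klf2, Klf4 and Klf5 had log2 changes of -0.29 ± 0.36, -0.01 ± 0.17 and 0.25 ± 0.26, and Tcl1 one of -0.11 ± 0.36. Tbx3 had 1.12, 0.987 and 1.17 CPM in BPA EpiLCs, which are 20, 12 and 26 counts, against 0.852 and 0.777 CPM and an unlisted replicate 3 in untreated EpiLCs. Its log2 change of 0.96 ± 0.95 (adjusted p = 0.943) rests on these few counts, and 2.5% of all genes were higher without overlap in EpiLCs. Adjusted p-values of the 10 members were 0.943 to 0.993. Without untreated EpiLC replicate 3, the log2 changes of Klf2, Tfcp2l1, Tcl1 and Nr0b1 turned to 0.26, -0.09, 0.13 and 0.11, and those of Klf5 and Tbx3 were 0.00045 and 0.43.

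The difference between the BPA effects of the stages was tested directly, as the effect in PGCLCs minus that in EpiLCs. The log2 difference was negative for 9 of 10 members, with a median of -0.44 against 0.01 for all genes. The edgeR test called 0 of 10 members, where 1.32% of all genes tested were called. An unadjusted p under 0.05 was reached by 3 members, Esrrb, Nr0b1 and Zfp42, and by 2449 of all 17608 genes tested. DESeq2 called 1, Esrrb, at -0.54 ± 0.14 (adjusted p = 0.00431), and limma voom called 0. In the edgeR fit Esrrb had -0.55 ± 0.15 (adjusted p = 0.124), Nr0b1 -0.93 ± 0.27 (adjusted p = 0.137) and Zfp42 -0.31 ± 0.13 (adjusted p = 0.303). Klf2 was the member with a positive value, 0.48 ± 0.40 (adjusted p = 0.692), and it was -0.05 without untreated EpiLC replicate 3. Esrrb was called without untreated EpiLC replicate 2, at -0.69 (adjusted p = 0.0409), and Nr0b1 without untreated EpiLC replicate 3, at -1.11 (adjusted p = 0.0335), or without BPA PGCLC replicate 3, at -1.09 (adjusted p = 0.0464).

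The partners Oct4 and Sox2 were measured beside the set. Pou5f1, which encodes Oct4, had 283, 286 and 311 CPM in BPA PGCLCs, against 439, 428 and 469 CPM in untreated PGCLCs, a log2 change of -0.59 ± 0.06 (adjusted p = 0.00136). Sox2 had 368, 356 and 372 CPM in BPA PGCLCs, against 480.2, 406 and 468 CPM in untreated PGCLCs, a log2 change of -0.29 ± 0.07 (adjusted p = 0.0288). Both fell in PGCLCs of the BPA arm. The log2 change of Sox2 was -0.37 to -0.26 over the fits with 1 PGCLC library left out. Pou5f1 was called in 6 of 6 of these fits and Sox2 in 2 of 6, those without untreated replicate 2 or BPA replicate 3. Neither passed the test in EpiLCs, where Pou5f1 had 455 to 553 CPM in BPA cells and 491 to 734 CPM in untreated cells. Between untreated stages the partners went opposite ways, Sox2 being higher in PGCLCs by 3.78 ± 0.12 on the log2 scale (adjusted p = 9.31e-10) and Pou5f1 lower by a log2 difference of -0.41 ± 0.14 (adjusted p = 0.0238). The highest EpiLC value of Pou5f1 was that of untreated replicate 3, and without that library the difference was -0.27 ± 0.10 (adjusted p = 0.0354). Pou5f1 lost its stage call without untreated PGCLC replicate 1 or 2, with an adjusted p of up to 0.0719.

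Of 14 other genes of naive pluripotency, 4 were called in BPA PGCLCs, each lower, and the median log2 change of the 14 was -0.19. Over all genes tested, 5.72% were called lower and the median was 0.01. Dppa5a, an RNA-binding protein gene of pluripotent cells, had 509, 490.4 and 438 CPM in BPA PGCLCs, against 917, 900.3 and 931 CPM in untreated PGCLCs, a log2 change of -0.92 ± 0.06 (adjusted p = 0.000367). Prdm14, a repressor needed for naive pluripotency and for germ cells, changed by -0.63 ± 0.09 (adjusted p = 0.00545). Dppa2 and Dppa4, whose proteins act as a pair on chromatin, changed by -0.40 ± 0.08 and -0.41 ± 0.09 (adjusted p = 0.0183 and 0.0238). Dppa5a and Prdm14 were called in 6 of 6 fits with 1 PGCLC library left out, and Dppa2 and Dppa4 in 1 of 6, the one without BPA replicate 3. Nanog and Dppa5a are known to have pseudogene copies in the mouse, and how their shared reads were counted is not stated. Between untreated stages 10 of the 14 were called higher in PGCLCs and 2 lower, where 30.4% and 25.2% of all genes tested were. Higher were Fbxo15 by 3.05 ± 0.09 on the log2 scale, Tdh, a threonine-degrading enzyme, by 3.90 ± 0.12, Pecam1 by 3.16 ± 0.10 and Nr5a2, a nuclear receptor, by 5.65 ± 0.19. Prdm14 was unlisted in all untreated EpiLC libraries and was at least 147-fold higher in untreated PGCLCs, with 9 counts per library as the bound. Gbx2 and Dppa5a were lower in untreated PGCLCs, with log2 differences of -3.23 ± 0.30 and -0.68 ± 0.22. Dppa5a had 917, 900.3 and 931 CPM in untreated PGCLCs, against 1197, 1006 and 2191 CPM in untreated EpiLCs. Without untreated EpiLC replicate 3 its difference was -0.32 ± 0.09 (adjusted p = 0.00946), and its call was lost without any 1 of the 3 untreated PGCLC libraries, with an adjusted p of up to 0.0564. Prdm14, Gbx2 and Dppa5a were named in the stage comparison after their values were seen.

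Of 10 genes of LIF and STAT3 signalling, 9 were called higher in untreated PGCLCs than in untreated EpiLCs and Ptpn11, named here after its value was seen, was not called. Over all genes tested, 30.4% were called higher, and the median log2 difference was 1.29 for the list and 0.07 for all genes. Lif, also named after its value was seen, lost its call without untreated EpiLC replicate 1 or 3 or untreated PGCLC replicate 2, with an adjusted p of up to 0.0608. Lifr, the LIF receptor, had 119, 108 and 107 CPM in untreated PGCLCs, against 11.8, 15.8 and 7.66 CPM in untreated EpiLCs, a log2 difference of 3.23 ± 0.21 (adjusted p = 1.49e-07). Il6st, its signalling subunit gp130, differed by 2.67 ± 0.19, Stat3 by 1.66 ± 0.16 and Socs3, the feedback inhibitor, by 3.16 ± 0.18. Receptor, transducer and feedback gene were all higher in PGCLCs, as the members were, and a link of this list to the members was not tested. In BPA PGCLCs the list had a median log2 change of -0.05 and 1 gene called lower, where 5.72% of all genes tested were. That gene was Pim1, a kinase gene and STAT3 target, at -0.39 ± 0.08 (adjusted p = 0.0198). Its call held in 2 of 6 fits with 1 library left out, those without untreated replicate 2 or BPA replicate 3.

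Of 13 genes of the exit from naive pluripotency and of the formative state, 2 rose in BPA PGCLCs, Dnmt3a and Lef1. Over all genes tested, 8.13% were called higher. Dnmt3a, a de novo DNA methyltransferase, had 120.2, 125 and 125 CPM in BPA PGCLCs, against 71.6, 95.0 and 92.7 CPM in untreated PGCLCs, a log2 change of 0.53 ± 0.11 (adjusted p = 0.0191). Lef1, a transcription factor of the Wnt pathway, changed by 0.56 ± 0.13 (adjusted p = 0.0299). With 1 PGCLC library left out, Dnmt3a was called in 3 of 6 fits, losing its call without untreated replicate 3 or BPA replicate 1 or 2, and Lef1 in 1 of 6, the one without BPA replicate 3. Between untreated stages 7 of the 13 were called higher in PGCLCs and 5 lower, where 30.4% and 25.2% of all genes tested were. The lower ones included Dnmt3a, by -2.97 ± 0.12 on the log2 scale, and Dnmt3b, by -1.73 ± 0.12. Otx2, a homeodomain factor of the formative state, was higher in PGCLCs by 2.75 ± 0.15, and Tcf7l1, a repressor of naive genes, by 1.62 ± 0.13.

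Relatives of the members in the KLF, ESRR, TBX, TCL1 and other families gave 17 tested genes. In BPA PGCLCs 1 was called, Tcl1b2, with 2.70, 2.59 and 2.97 CPM in BPA PGCLCs, against 0.382, 0.809 and 1.15 CPM in untreated PGCLCs, a log2 change of 1.83 ± 0.49 (adjusted p = 0.0459), and it was called in 0 of 6 fits with 1 library left out. Tcl1b2 belongs to a cluster of similar genes, and its count is uncertain where reads are shared. Between untreated stages 12 of 17 were higher in PGCLCs and 1, Esrra, named after its value was seen, was lower, and the median log2 difference was 1.20, or 0.70 with 3 genes unlisted in EpiLCs at their bound. Over all genes tested, 30.4% were called higher and 25.2% lower, and the median was 0.07. Klf16, among the 12 and also named after its value was seen, was called in 1 of 12 fits with a library left out, and Esrra in 9 of 12, its log2 difference being -0.58, or -0.39 without untreated EpiLC replicate 3 (adjusted p = 0.0959). Klf3, Klf10 and Klf6 were higher by 1.79 ± 0.12, 1.42 ± 0.12 and 1.76 ± 0.17, all less than Klf2, Klf4 or Klf5.

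**Figure D4:**
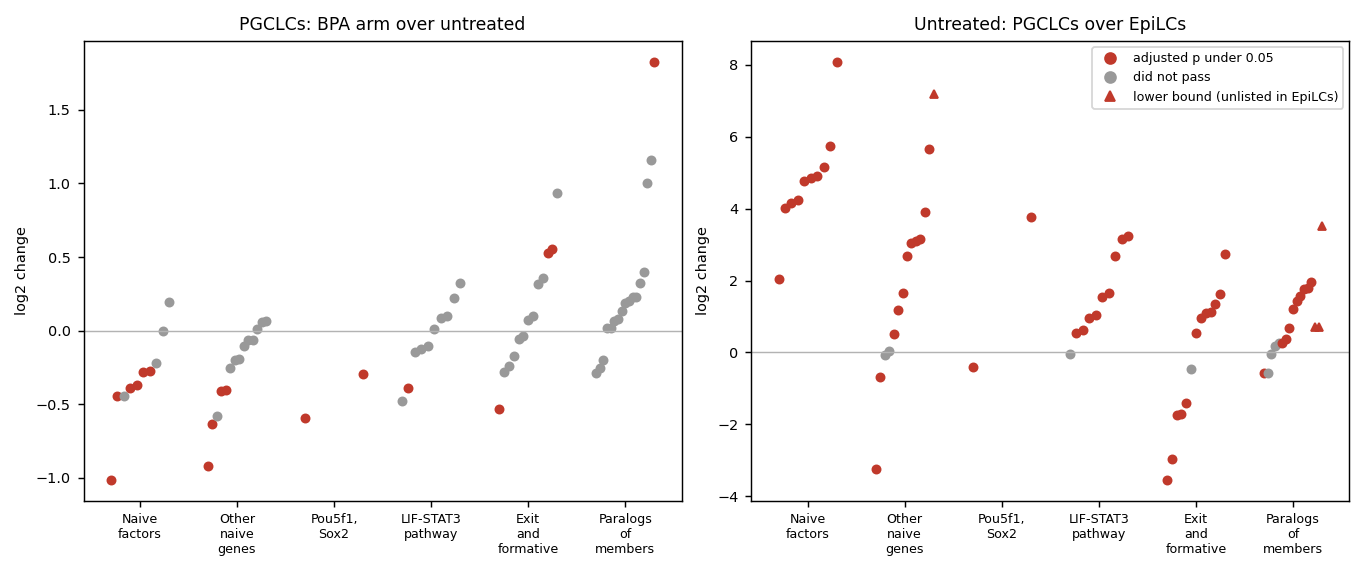
Log2 change of each tested gene in 6 lists, in BPA over untreated PGCLCs (left) and in untreated PGCLCs over untreated EpiLCs (right); red points passed an adjusted p of 0.05, grey points did not, and triangles are lower bounds for genes unlisted in untreated EpiLCs. All 10 naive factors are red and above 2 in the stage comparison, and 6 of them are red and below 0 in the BPA comparison.

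The 6 germ cell markers had a median log2 change of -0.36 in the BPA arm, against 0.01 for all genes. Kit was the marker with a positive value. Of the 6, 2 were called lower, where 5.72% of all genes tested were. Prdm1 changed by -0.32 ± 0.08 on the log2 scale (adjusted p = 0.0334) and Tfap2c by -0.41 ± 0.08 (adjusted p = 0.0184), and both were called lower. With 1 library left out Prdm1 was called in 1 of 6 fits, the one without BPA replicate 3, and Tfap2c in 2 of 6, those without untreated replicate 1 or BPA replicate 3. The other 4 did not pass: Dppa3 had -0.09 ± 0.10, Kit 0.06 ± 0.07, Nanos3 -0.86 ± 0.28 and Dnd1 -0.44 ± 0.14. Prdm1 and Dppa3 drive the reporters used for the sort, so their levels are set in part by the gate.

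Some genes followed a member closely over the 12 libraries. Likeness was measured as the root mean square difference of log2 CPM, each gene centred on its own mean, over 14332 genes, and it is dominated by the difference between stages. Nearest to Esrrb were Tmod1 at 0.14 and the germ cell factor Tfap2c at 0.16, and nearest to Nanog were Asz1 at 0.18 and Grhl3 at 0.19. Zfp42 had the closest neighbours of any member, Gal3st3 at 0.08 and Sec14l1 at 0.11. Tfcp2l1 was followed by Ahnak at 0.27 and Zc3hav1 at 0.30, Klf2 by Id3 at 0.26 and Jak3, also on chromosome 8, at 0.28, and Klf4 by Casr at 0.13 and Edil3 at 0.20. Klf5 was followed by Epha4 at 0.25 and Grhl3 at 0.26, and Tcl1 by Notch4 at 0.20. Nr0b1 was nearest to Rhox4d, another gene of chromosome X, at 0.25 and Pdgfa at 0.26, and Rhox4d belongs to a cluster of near-identical genes whose shared reads leave its count uncertain. Tbx3 had no neighbour below 0.67, the value of Jam2, with Lcp1 at 0.83. Among the members, Klf5 and Tfcp2l1 were the most alike at 0.16, Klf5 and Nanog followed at 0.22, and Tbx3 and Zfp42 were the least alike at 3.18.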

How the data were processed

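Messenger RNA was measured in 12 libraries of mouse EpiLCs and PGCLCs. Per the submitters' processing notes, bcl2fastq 2.19.1.403, FastQC, STAR and HTSeq were used with the mm10 build. The count files deposited by the authors give whole numbers of reads for each Ensembl gene, 1 file for each library, and list no gene with fewer than 10 counts. The authors' CPM tables, 1 per stage, match the counts after division by a single number for each library. They linked symbols to IDs and served in 1 alternative within each stage. Rows for reads without a feature held 4.42% to 10.7% and ambiguous reads 4.56% to 6.07%, and both stayed out of library sizes. Of 21728 gene IDs, 21695 were in GENCODE M21 (mm10), which gave coordinates and exon lengths.

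Groups follow the sample titles. For untreated EpiLC replicate 3, title and description give different numbers, and the title was used. BPA effects were fitted within each stage (6 libraries), and stage differences and the interaction in 1 fit of 12, with filterByExpr, TMM and the quasi-likelihood test of edgeR 4.0.16 in R 4.3.3. P-values were adjusted by Benjamini-Hochberg over the genes of each fit, and 0.05 was the threshold. Adjusted p-values come from this edgeR test unless DESeq2 is named, and each SE has n = 3 libraries per group. Printed CPM come from 1 TMM scaling of all 12 libraries, so their ratios differ slightly from the fitted changes.

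The members and the other gene lists were chosen with earlier results of these data known. All members are named. Of each other list, up to 4 called genes with the smallest p are named, or the gene with the smallest p where none was called, and all core partners, germ cell markers and Xist. Alternatives were DESeq2 1.42.0, limma 3.58.1 voom, limma-trend on log2 of the deposited CPM plus 1, scaling by RLE or by library size alone, filters of none or of 1 CPM in 3 libraries, the replicate number as a block, unlisted genes counted as 9, other sets of libraries in the fit and each library left out. Scaling on genes outside chromosomes 8 and X, and leaving out each library for genes of the other lists, were added after seeing the data. A few genes that these rules name are not reported here. The fits were tested on simulated data with known changes.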

Additional observations from a re-analysis of the deposited data

How the results depend on the processing

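All 10 members stayed called higher in PGCLCs, in both arms, under every alternative run. In PGCLCs, the count of members called lower under BPA was 6, and 2 in 1 fit of all 12 libraries. Leaving out 1 library gave 2 to 5 members and 668 to 3206 genes called, against 2321. Of the members called, 7 values lost their call under alternatives other than a left-out library: Zfp42 with library size alone, Zfp42 and Tcl1 with the block, and Nanog, Zfp42, Tfcp2l1 and Tcl1 in the fit of 12. The cause was not tested. Tbx3 under BPA in PGCLCs turned to 0.0067 with no filter, to 0.0014 with scaling outside chromosomes 8 and X, and ranged from -0.11 to 0.16 over left-out libraries.

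In EpiLCs DESeq2 called 16 genes, against 0. Over left-out EpiLC libraries the log2 change ranged from -0.19 to 0.11 for Nanog, from -0.090 to 0.42 for Tfcp2l1, from -0.56 to 0.26 for Klf2, from -0.097 to 0.068 for Klf4, from -0.33 to 0.13 for Tcl1 and from -0.18 to 0.11 for Nr0b1. The interaction had 232 genes called, against 900 with DESeq2, 141 with limma voom, 150 with the replicate block, 519 with unlisted genes counted as 9 and 83 to 767 over left-out libraries. Members called in it numbered 1 with DESeq2 and 0 to 1 over left-out libraries, and the Klf2 value ranged from -0.049 to 0.76.

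No pairing by replicate number was seen: deviations of same-numbered libraries correlated at -0.021 to 0.057 over all genes that passed the filter. These values do not exclude a pairing, and the number of untreated EpiLC replicate 3 is itself uncertain. With the number as a replicate block, 4 members were called in PGCLCs under BPA. Depth limits Tbx3 and Tcl1 in EpiLCs, which had 0 to 26 and 19 to 32 counts.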

Other observations

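Markers of other lineages gave calls in both directions in BPA over untreated PGCLCs. Over all genes tested, 8.13% were called higher and 5.72% lower. Of 6 mesoderm genes tested, Mixl1 rose, with 14.7, 15.2 and 0.594 CPM in BPA PGCLCs against 0.637 CPM in untreated replicate 3 and no listing in the other 2, and Kdr fell by 0.95 ± 0.26 on the log2 scale (adjusted p = 0.0463). Of 7 trophoblast genes, Cdx2 rose by 1.71 ± 0.42 (adjusted p = 0.0329) and Krt7 fell by 0.85 ± 0.21 (adjusted p = 0.0355). Of 7 blood and endothelial genes, Tek fell by 1.32 ± 0.28 (adjusted p = 0.0204) and Hbb-bh1, unlisted in untreated PGCLCs, had 0.325, 0.399 and 4.21 CPM in BPA PGCLCs, so its high value was that of replicate 3 alone. Of 4 neuroectoderm genes, Tubb3 fell by 0.51 ± 0.11 (adjusted p = 0.0226). None of 5 epiblast genes was called by edgeR, and the smallest p was that of Fgf5, with 12.5, 13.8 and 2.63 CPM in BPA PGCLCs and 6.79, 4.11 and 4.43 CPM in untreated PGCLCs (adjusted p = 0.320). With 1 PGCLC library left out, Hbb-bh1 was called in 0 of 6 fits, Mixl1, Kdr, Tek and Tubb3 in 1 of 6, the one without BPA replicate 3, and Cdx2 and Krt7 in 2 of 6. Mixl1 and Fgf5 were, like Klf4 and Tbx3, lowest in BPA PGCLC replicate 3 among the BPA libraries.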
